A study of Sus scrofa with 3 samples.

Results

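The genes described here encode subunits of the mitochondrial respiratory chain and of ATP synthase. Members were chosen by a rule on the gene symbol, set with earlier results of these data known. It takes every probe set with a single platform symbol that begins as the nuclear subunits of complexes I to V do, with cytochrome c added. This gave 75 probe sets for 60 genes, of 23935 probe sets and 6765 named genes in all. Complex I had 31 genes on the array, complex II 4, complex III 2, complex IV 8 and complex V 13, and the other two were CYCS, which encodes cytochrome c, and ATP5S, a coupling factor of ATP synthase. NDUFA4, named after complex I, is counted with complex IV, with which its protein associates.

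Lung tissue of minipigs, a small pig used for surgery, was measured on 3 Affymetrix porcine arrays. The operated array holds left lung after a passing occlusion of the left pulmonary artery that spared the bronchus, which makes a ventilated lung ischemic and then reperfused. The non-operated array holds right lung from that same surgical model, and the sham array holds lung after sham surgery. With 1 array in each group the differences have no replicate check and no p-value, and precision is limited by the number of arrays. All 3 groups were kept in specific pathogen-free housing. Strain, age, sex, the length of ischemia and of reperfusion, and whether both lungs came from the same animal were not stated in the labels. The surfactant gene SFTPC, which marks alveolar type 2 cells, had log2 signals of 14.52 in the operated lung, 14.56 in the non-operated lung and 14.44 in sham, as fits lung tissue. Comparisons of the operated and of the non-operated lung with sham share the sham array.

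The respiratory chain passes electrons from NADH, through complex I, and from succinate, through complex II, to ubiquinone, then through complex III and cytochrome c to complex IV, which reduces oxygen to water. Complexes I, III and IV pump protons across the inner mitochondrial membrane, and ATP synthase, complex V, uses their return to make ATP. Most subunits are encoded in the nucleus and imported, while a few are encoded in mitochondrial DNA. Ischemia followed by reperfusion is known to engage this machinery, because oxygen and substrate supply stop and resume. In a ventilated lung oxygen still reaches the airspaces while blood flow is interrupted.

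Subunit signals lay mostly below sham in both lungs, by modest amounts. In the operated lung 50 of 58 genes had a log2 ratio below 0 against sham, with a median of -0.46, and 57.7% of all 5097 genes counted had one below 0, with a median of -0.11. In the non-operated lung 54 of 58 were below 0, with a median of -0.42, against 56.6% and a median of -0.10 for 5113 genes. The 58 genes are those above the floor on all 3 arrays, the floor being each array's median log2 signal of 7.31, 7.31 and 7.33 in the operated, non-operated and sham arrays. The other two, NDUFV3 of complex I and the muscle isoform COX8H of complex IV, were at or below it on every array and are given no ratio. No member was above the floor on only some arrays. Relative to the all-gene median, 47 subunit genes were lower in the operated lung and 49 in the non-operated lung.

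Differences of 2-fold or more were about as frequent among subunit genes as on the whole array when lower, and absent when higher. At least 2-fold lower against sham were 4 of 58 genes in the operated lung and 5 of 58 in the non-operated lung, which is 6.90% and 8.62%, beside 8.79% and 8.55% of all genes. At least 2-fold higher were 0 in either lung, beside 8.65% and 8.96% of all genes. At a 1.5-fold threshold, 17 genes were lower and 1 was higher in the operated lung, where all genes gave 21.7% lower and 16.7% higher. In the non-operated lung 19 were lower and 2 higher, where all genes gave 21.4% and 17.5%. Less than 1.5-fold from sham were 40 subunit genes in the operated and 37 in the non-operated lung, beside 61.5% and 61.1% of all genes. The central 50% of subunit genes lay between -0.60 and -0.19 in the operated lung and between -0.63 and -0.17 in the non-operated lung, a narrower span than the -0.53 to 0.33 and -0.51 to 0.36 of all genes. Among all named genes above the 75th percentile of mean probe set signal, the median was -0.093 for the operated and -0.095 for the non-operated lung.

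**Figure D1:**
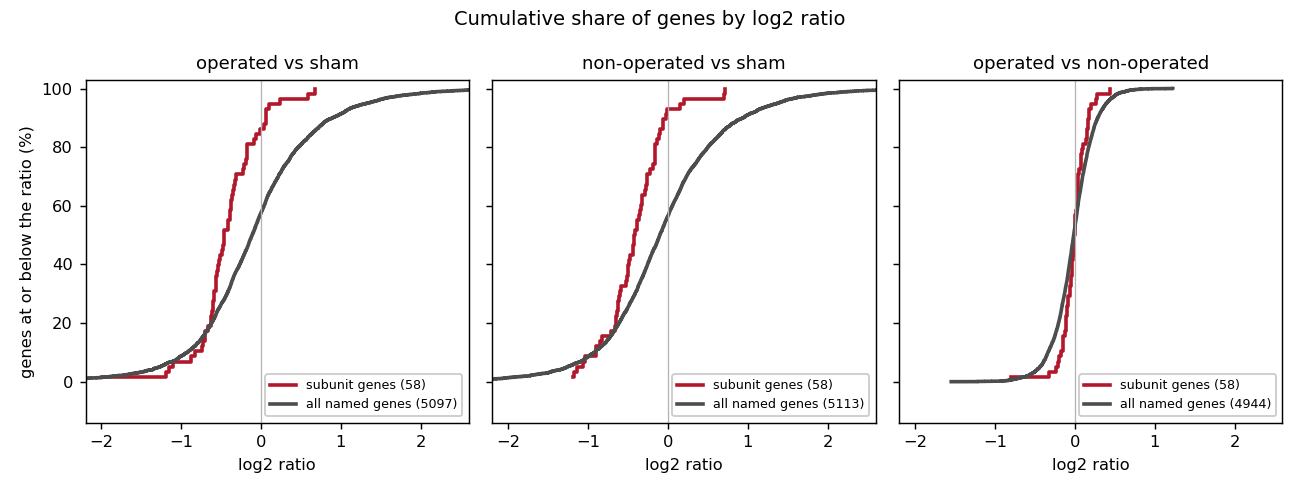
Cumulative share of genes (%) by log2 ratio for the 58 subunit genes and for all named genes, in each of 3 comparisons with 1 array per group. Against sham the subunit curve crosses 50% at -0.46 for the operated and -0.42 for the non-operated lung, to the left of all genes at -0.11 and -0.10, and between both lungs the curves cross near 0.

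Some other cell populations differed between these arrays in the same direction as the subunits. Of 4 proliferation markers on the array, TOP2A, CCNB1, RRM2 and BIRC5, all 4 were at least 2-fold lower against sham in each lung. Of all genes, 8.79% were so in the operated and 8.55% in the non-operated lung. The summed log2 signal of these markers was 10.20 in the operated lung, 10.57 in the non-operated lung and 13.60 in sham. Of 4 T cell markers, 3 were at least 2-fold lower in each lung, beside the same shares of all genes. Their summed signals were 9.79, 9.83 and 11.39 in the same order. CD3D, 1 of these 3, was below the floor in the operated lung at 7.26 and in the non-operated lung at 6.82. The floor thus sets the size of its ratios. CD79B, the 1 B cell marker on the array, was below the floor in the operated lung at 6.44 and in the non-operated lung at 6.19, against 11.22 in sham. Macrophage, endothelial and alveolar type 1 markers lay on the other side, with summed signals of 13.92, 13.65 and 14.82 in the operated lung, 13.86, 13.71 and 14.83 in the non-operated lung, and 11.70, 12.33 and 13.43 in sham. So did neutrophil markers, with summed signals of 12.72, 13.01 and 10.04 in the operated lung, the non-operated lung and sham. Alveolar type 2 markers had 15.51, 15.42 and 15.12, and of 5 markers 5 were above sham in the operated and 4 in the non-operated lung. In whole tissue, fewer cells of a type and less RNA per cell cannot be told apart, and the part of these populations in the subunit ratios was not tested.

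The complexes differed in how far their genes lay below sham. Complex V had a median of -0.56 over 13 genes in the operated lung and -0.63 in the non-operated lung, and complex I had -0.46 and -0.43 over 30 genes. Complex III was lower still, at -0.74 and -0.71, but rests on 2 genes. Complex II had -0.25 and -0.26 over 4 genes, and complex IV had -0.18 and -0.16 over 7. Taken from the all-gene median, complex IV lay at -0.071 in the operated and -0.055 in the non-operated lung, while complex V lay at -0.45 and -0.52. The complex IV genes went both ways around the all-gene median, from -0.35 for COX7A2 to 0.79 for COX7A1 in the operated lung. In the operated lung the complex IV median was 0.057 with the mean of all probe sets, and the complex II median was -0.017 with the probe set of lowest signal. These are counts and medians of genes read on the same arrays and carry no test between complexes.

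**Figure D2:**
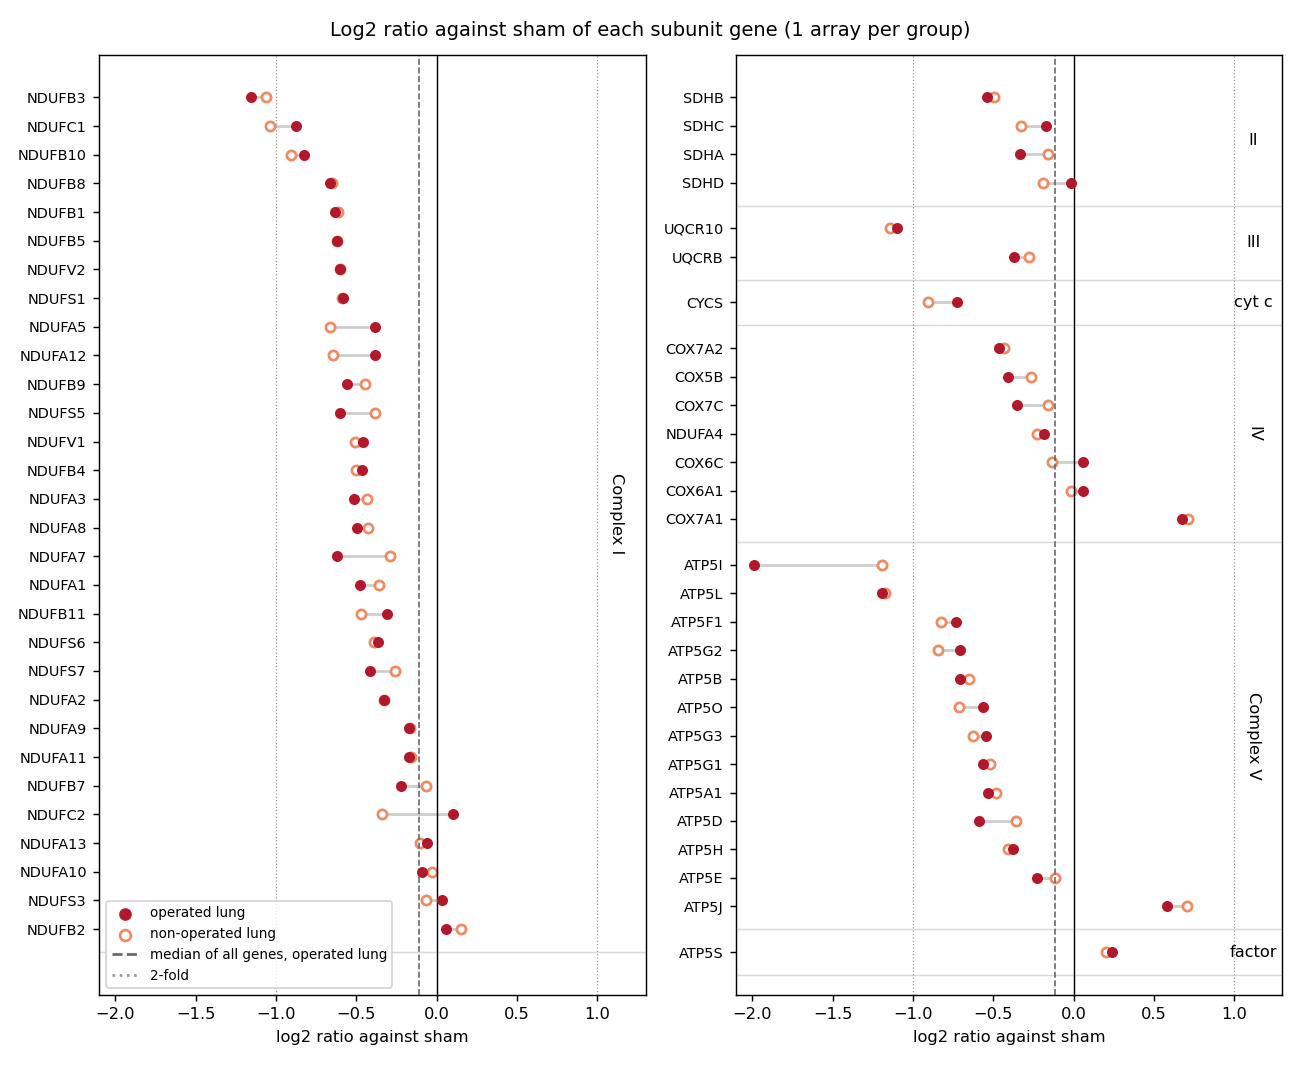
Log2 ratio against sham of each of the 58 subunit genes above the floor (horizontal axis), grouped by complex down the page, with filled points for the operated lung and open points for the non-operated lung (1 array per group). Complex V genes other than ATP5J sit left of 0, ATP5I reaches -1.99 in the operated lung, and COX7A1 and ATP5J lie to the right at 0.58 to 0.71.

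Within ATP synthase the lowest ratios belonged to the small membrane subunits e and g. ATP5I, which encodes subunit e, had log2 signals of 7.73 in the operated lung, 8.53 in the non-operated lung and 9.73 in sham. The sham array was the highest and the operated array the lowest, close to its floor of 7.31. The ratio was -1.99 in the operated lung, 3.98-fold lower than sham, and -1.19 in the non-operated lung, 2.29-fold lower. Of all genes counted, 1.47% had a lower ratio in the operated lung and 5.81% in the non-operated lung. A further ATP5I probe set lay at or below the floor on all 3 arrays, at 1.79, 3.0 and 5.70 in the operated, non-operated and sham arrays. With a floor at the 75th percentile the ATP5I ratio was -0.50 in each lung. With the mean of its probe sets it was -0.40 in the operated and -0.41 in the non-operated lung. In both settings the values of both lungs lay below the floor and were replaced by it. The floor thus sets these sizes, which are short of 2-fold, and they are not a smaller reading by the further probe set.

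ATP5L encodes subunit g, which with subunit e sits where ATP synthase monomers meet and is needed for the dimer in yeast. Its signals were 11.71 in the operated lung, 11.73 in the non-operated lung and 12.91 in sham, so both lungs lay together below sham. The ratios were -1.19 and -1.17, or 2.29-fold and 2.26-fold lower. Another ATP5L probe set above the floor, at 7.53, 7.45 and 7.92, gave -0.39 and -0.47, on the same side and smaller. A further ATP5L probe set was at or below the floor on all arrays, at 6.33, 5.36 and 6.32. With the mean of all its probe sets, this 1 included, ATP5L was at -0.52 in the operated and -0.87 in the non-operated lung, short of 2-fold.

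The other parts of ATP synthase were lower by less than 2-fold, with 1 exception. ATP5B, the catalytic beta subunit, had 12.57 in the operated lung, 12.63 in the non-operated lung and 13.28 in sham, which gave ratios of -0.71 and -0.65. ATP5A1, the alpha subunit, was at -0.53 and -0.49. In the central stalk that turns inside the head, ATP5D was at -0.59 in the operated and -0.36 in the non-operated lung, and ATP5E was nearest to sham at -0.23 and -0.12.

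ATP5G1, ATP5G2 and ATP5G3 are 3 genes for the same mature subunit c, which forms the rotating ring, and they differ in the import peptide that is cut off. Their ratios were -0.56, -0.71 and -0.55 in the operated lung and -0.52, -0.85 and -0.63 in the non-operated lung. All 3 were below sham in each lung, and none of the 3 was 2-fold lower in either.

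The peripheral stalk holds the head against rotation and is built from subunits b, d, F6 and OSCP. ATP5F1, subunit b, was at -0.74 in the operated and -0.83 in the non-operated lung, ATP5O, the OSCP subunit, at -0.56 and -0.71, and ATP5H, subunit d, at -0.38 and -0.41. ATP5J, which encodes F6, went the other way. Its signals were 10.94 in the operated lung, 11.07 in the non-operated lung and 10.36 in sham, so both lungs lay above sham, by 0.58 and 0.71. That is just under the 1.5-fold threshold in the operated lung and 1.63-fold higher in the non-operated lung. A further ATP5J probe set was at or below the floor on all arrays, and the mean of both gave 0.027 and 0.19.

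**Figure D3:**
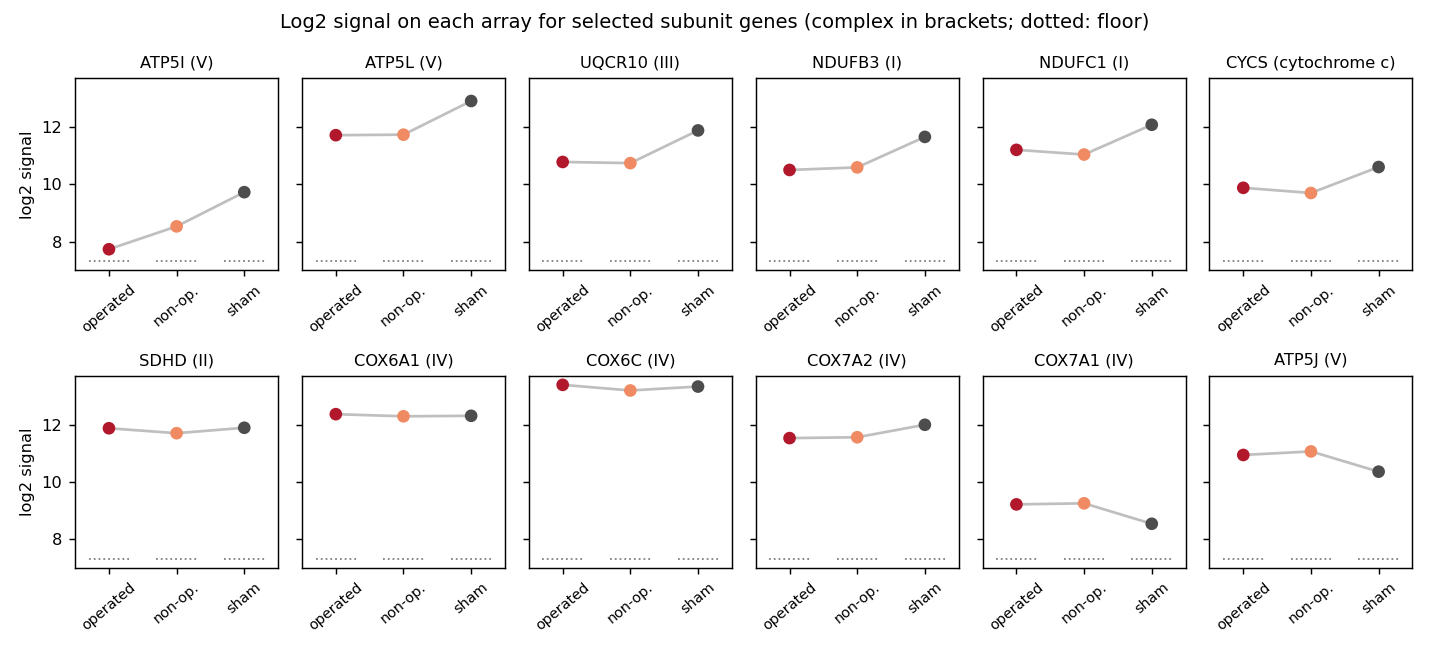
Log2 signal (vertical axis) on the operated, non-operated and sham arrays for 12 subunit genes, with the complex in brackets and the floor of each array dotted; each point is 1 array. ATP5I, ATP5L, UQCR10, NDUFB3, NDUFC1 and CYCS are highest in sham, SDHD, COX6A1 and COX6C are nearly level, and COX7A1 and ATP5J are lowest in sham.

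In complex I, 27 of 30 genes were below 0 in the operated lung and 29 of 30 in the non-operated lung, beside 57.7% and 56.6% of all genes. Relative to the all-gene median, 25 of 30 were lower in each lung. The accessory subunits named NDUFB and NDUFC had a median of -0.59 in the operated lung and -0.56 in the non-operated lung over 12 genes. The accessory NDUFA and NDUFS subunits had -0.38 and -0.36 over 13 genes. Both accessory groups are by gene name, not by place in the complex, and do not compare its arms. The 5 core subunits, which carry the flavin and iron-sulfur clusters of the matrix arm or bind them in place, had -0.46 and -0.51.

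NDUFB3 had the lowest ratios of complex I. Its signals were 10.50 in the operated lung, 10.59 in the non-operated lung and 11.66 in sham, and the ratios of -1.15 and -1.06 correspond to 2.22-fold and 2.09-fold lower. A second probe set with a signal of 11.04 in sham gave -0.56 and -0.58, so the direction was shared and the size was not.

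NDUFC1, a small membrane arm subunit, had 11.20 in the operated lung, 11.04 in the non-operated lung and 12.08 in sham. It was 1.83-fold lower in the operated and 2.05-fold lower in the non-operated lung, on either side of the 2-fold threshold. NDUFB10 followed at -0.83 and -0.90. NDUFB8, NDUFB1 and NDUFB5 lay between -0.67 and -0.62 in both lungs. NDUFB2 was above sham in each lung, at 0.058 and 0.15, NDUFC2 was at 0.098 in the operated and -0.34 in the non-operated lung, and NDUFB7 was at -0.22 and -0.067.

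Among the core subunits, NDUFV1, which binds NADH and the flavin, was at -0.46 in the operated and -0.51 in the non-operated lung, and the iron-sulfur subunit NDUFS1 at -0.58 and -0.59. NDUFV2, another iron-sulfur subunit, was at -0.60 and -0.61, but another probe set above the floor on all arrays gave -0.070 and 0.095. The mean of its probe sets, 1 of which was at or below the floor on all arrays, gave -0.21 and -0.20. NDUFS7 was at -0.42 and -0.26. NDUFS3 was at 0.036 and -0.066, with signals of 10.14 in the operated lung, 10.04 in the non-operated lung and 10.11 in sham. A second NDUFS3 probe set above the floor on all arrays gave 0.48 and 0.064, and the probe set of lowest signal gave -0.22 and -0.51 with the floor applied, so NDUFS3 has no direction.

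Of the NDUFA subunits, NDUFA5 and NDUFA12 were at -0.38 each in the operated lung and at -0.66 and -0.65 in the non-operated lung, and NDUFA7 was at -0.62 and -0.29. NDUFA13, also known as GRIM19, was at -0.060 and -0.10, and NDUFA10 at -0.094 and -0.028. NDUFA4, counted with complex IV, was at -0.18 and -0.23. Counting it with complex I left the complex I medians at -0.46 and -0.43.

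Complex II, succinate dehydrogenase, is both a respiratory complex and an enzyme of the citric acid cycle, and it has no subunit from mitochondrial DNA. All 4 of its genes were on the array. SDHA, the flavoprotein, was at -0.34 in the operated and -0.16 in the non-operated lung. SDHC and SDHD, the membrane anchors, were at -0.17 and -0.017 in the operated lung and at -0.33 and -0.19 in the non-operated lung. SDHD had signals of 11.88 in the operated lung, 11.70 in the non-operated lung and 11.89 in sham, so the operated lung lay level with sham.

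SDHB, the iron-sulfur subunit, had 11.38 in the operated lung, 11.42 in the non-operated lung and 11.92 in sham, and ratios of -0.54 and -0.50. A second SDHB probe set well above the floor, with 10.47, 10.58 and 10.13 in the same arrays, gave 0.34 and 0.45. These opposite readings leave SDHB without a direction.

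Complex III was represented by UQCR10 and UQCRB. UQCR10, a small subunit of the cytochrome bc1 complex, had 10.78 in the operated lung, 10.74 in the non-operated lung and 11.88 in sham. Both lungs lay together below sham, at -1.10 and -1.14, or 2.14-fold and 2.20-fold lower. UQCRB, which lies near a ubiquinone site, was at -0.37 and -0.28. Its probe set is of the kind whose probes are shared with other transcripts.

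CYCS had signals of 9.88 in the operated lung, 9.70 in the non-operated lung and 10.60 in sham. It was 1.65-fold lower in the operated and 1.87-fold lower in the non-operated lung. Cytochrome c carries electrons between complexes III and IV and, when released from mitochondria, starts caspase activation. These signals are of its transcript only.

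Complex IV genes lay on both sides of sham. COX6A1 had 12.37 in the operated lung, 12.29 in the non-operated lung and 12.31 in sham, and ratios of 0.057 and -0.017. COX6C had 13.39, 13.19 and 13.33, and ratios of 0.060 and -0.14. These nuclear subunits surround the catalytic core, which is encoded in mitochondrial DNA. COX5B was at -0.41 in the operated and -0.27 in the non-operated lung, and COX7C at -0.36 and -0.16. With the mean of its probe sets, 1 of which was at or below the floor on all arrays, COX7C was at 0.17 and 0.15.

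Both isoforms of subunit VIIa were on the array, and they lay on opposite sides of sham. COX7A1, the isoform of heart and skeletal muscle, had 9.22 in the operated lung, 9.26 in the non-operated lung and 8.54 in sham. It was 1.6-fold and 1.64-fold higher in the operated and the non-operated lung. With a floor at the 75th percentile its ratio in the non-operated lung was 0.0071, and in the operated lung it had none. COX7A2, the isoform of most other tissues, had 11.533, 11.562 and 11.998, which gave -0.47 and -0.44. Both isoforms were read on the same arrays, by 1 probe set each, and their ratios had opposite signs. That does not mean that either was constant, and with 1 array per group whether either changed was not tested.

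Markers of muscle were measured beside COX7A1. Of 4 smooth muscle markers on the array, TAGLN, CNN1 and DES were at least 2-fold higher in each lung, beside 8.65% and 8.96% of all genes. CNN1 at 6.97 and DES at 6.60 were below the floor in sham, so the floor sets the size of their ratios. ACTA2 was at 0.64 and 0.93. Summed signals of the 4 were 13.93 in the operated lung, 14.17 in the non-operated lung and 13.12 in sham. Of 7 striated muscle markers, 6 were at or below the floor on all arrays, among them MYH7, MYL2 and TNNT2, and the summed signals were 8.23, 8.76 and 8.55. TNNI3 was the 1 above it, at 7.51 in the operated lung, 7.98 in the non-operated lung and 7.47 in sham. COX8H, a further muscle isoform, was at or below the floor at 6.69, 6.21 and 6.23. The part of smooth muscle in the COX7A1 ratio was not tested.

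ATP5S, coupling factor B, was the remaining member and lay above sham by 0.24 in the operated and 0.20 in the non-operated lung. Its signals were 9.06, 9.02 and 8.82 in the operated, non-operated and sham arrays. A second probe set had 8.25, 9.05 and 9.11 and gave -0.86 and -0.061, so no direction can be given for ATP5S in either lung.

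Agreement between probe sets of the same gene is the only internal measure of error on these arrays. Of 12 subunit genes with more than 1 probe set, 7 had several above the floor. In the operated lung these lay on the same side of sham for ATP5L, NDUFA1, NDUFB3 and NDUFV2, all lower, and on both sides for ATP5S, NDUFS3 and SDHB. In the non-operated lung NDUFV2 joined the genes with both sides. The pooled SD of log2 ratios between probe sets was 0.54 in the operated and 0.48 in the non-operated lung for these 7 genes, and 0.44 in each for all genes with several probe sets. Against the spread of 0.44, 26 of 58 subunit ratios were no larger in the operated lung and 30 of 58 in the non-operated lung. Larger were 32 and 28, among them ATP5I, ATP5L, NDUFB3 and UQCR10 below sham, and ATP5J and COX7A1 above it. For UQCR10, with 1 probe set, the spread is that of other genes. NDUFA1, chosen here after its values were seen, shows how far probe sets can differ in size, with -0.48 and -0.36 from the probe set that stands for it. Its other probe set, above the floor in sham only at 8.72 against 6.22 in the operated and 6.47 in the non-operated lung, gives no measured level in either lung.

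**Figure D4:**
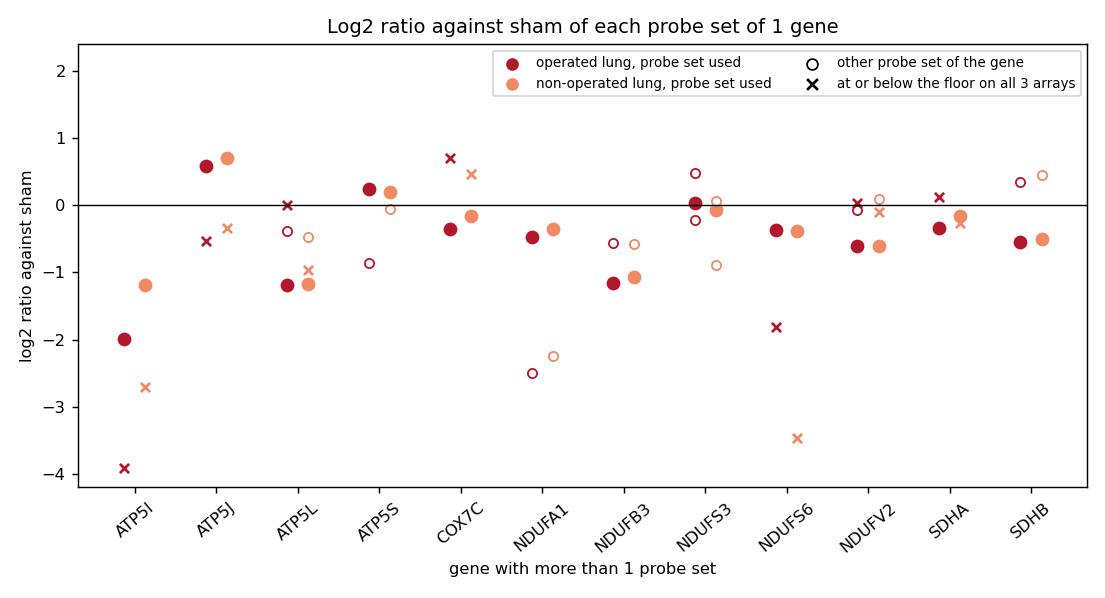
Log2 ratio against sham (vertical axis) of every probe set of the 12 subunit genes with more than 1, for the operated and the non-operated lung (1 array per group). Ratios here are plain differences of log2 signal, with no floor applied. Filled points are the probe sets that stand for a gene, open points the others, and crosses those at or below the floor on all 3 arrays; SDHB, NDUFS3 and ATP5S have open and filled points on both sides of 0.

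Between both lungs the subunit genes were nearly level. The median log2 ratio of the operated against the non-operated lung was -0.0071 over 58 genes, beside -0.016 over 4944 genes. Of the 58 genes, 57 were less than 1.5-fold apart, beside 96.6% of all genes. At least 2-fold lower or higher were 0 subunit genes, beside 0.182% and 0.0607% of all genes. At 1.5-fold, 1 was lower and 0 higher, beside 2.1% and 1.31% of all genes, and 31 of 58 had a ratio below 0, beside 52.8%. The pooled SD between probe sets was 0.23 in this comparison. Medians were -0.0030 for complex I, 0.056 for complex II, -0.028 for complex III, -0.030 for complex IV and -0.042 for complex V.

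The lowest ratio was that of ATP5I, at -0.80 in the operated against the non-operated lung, and 0.647% of all genes had a lower ratio. Its operated signal of 7.73 stood just above the floor of 7.31. The next lowest were NDUFA7 at -0.33, ATP5D at -0.23, NDUFS5 at -0.22 and COX7C at -0.20, which was 0.023 with the mean of its probe sets. ATP5S was at 0.034, but its second probe set gave -0.80 and the mean of both gave -0.38. The highest was NDUFC2, a membrane arm subunit of complex I, at 0.44, with signals of 11.54 in the operated and 11.10 in the non-operated lung and 11.44 in sham. NDUFA5, NDUFA12, COX6C and CYCS followed at 0.28, 0.26, 0.20 and 0.18. Of the 58 genes, 6 lay beyond the pooled SD between probe sets, namely ATP5I, NDUFA7, ATP5D, NDUFA12, NDUFA5 and NDUFC2.

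**Figure D5:**
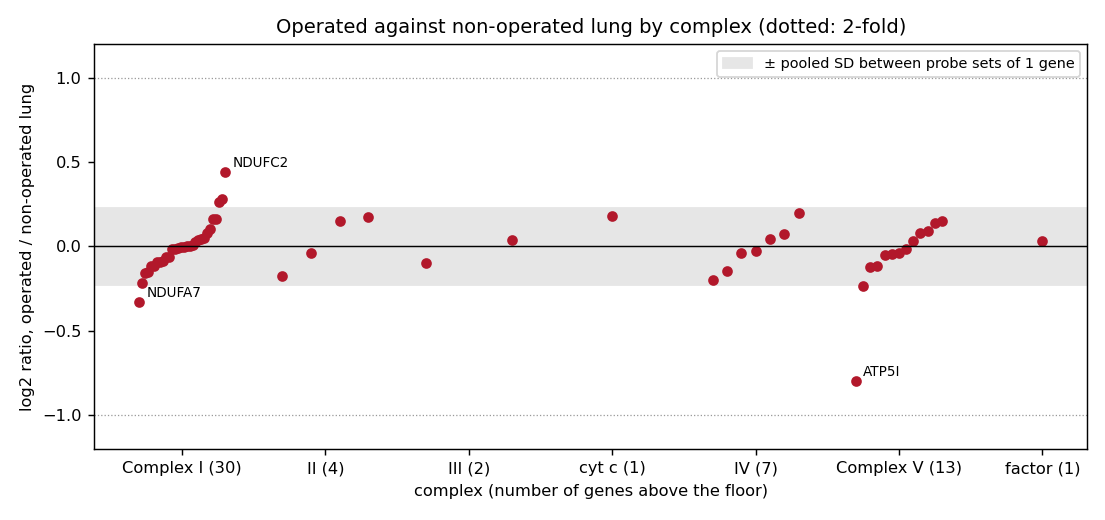
Log2 ratio of the operated against the non-operated lung (vertical axis) for each of the 58 subunit genes, by complex (1 array per group), with the pooled SD between probe sets of the same gene shaded. Most points lie within the shaded band of 0.23 either side of 0, and ATP5I at -0.80 and NDUFC2 at 0.44 lie outside it.

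Genes for proteins that build the complexes or are attached to them lay less far below sham than the subunit genes. Of 58 symbols listed as assembly factors or associated proteins, 22 were on the array. In the operated lung 12 of 17 above the floor were below 0 with a median of -0.26, beside 57.7% and -0.11 for all genes. At least 2-fold lower or higher were 0, beside 8.79% and 8.65% of all genes. In the non-operated lung 15 of 18 were below 0 with a median of -0.25, beside 56.6% and -0.10. At least 2-fold lower there was 1, the complex I assembly factor NDUFAF2 at -1.17, beside 8.55% of all genes. NDUFAF2 was at -0.96 in the operated lung. USMG5, a small protein of ATP synthase that the symbol rule does not reach, was at -0.46 and -0.51, and TMEM70, needed for ATP synthase assembly, was above sham at 0.67 and 0.60. NDUFAB1, the acyl carrier protein bound to complex I, was at 0.031 and -0.070.

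Of 23 symbols for regulators of mitochondrial biogenesis and of mitochondrial DNA expression, 8 were on the array and 6 entered each comparison. Medians were -0.28 in the operated and -0.52 in the non-operated lung, beside -0.11 and -0.10 for all genes. TFB1M was below the floor in the non-operated lung at 6.70, so its ratio of -0.52 there is set by the floor. The median in that lung lies between this value and that of TFAM. SSBP1, which binds single-stranded mitochondrial DNA, had 10.04 in the operated lung, 10.36 in the non-operated lung and 11.08 in sham. It was the 1 of 6 beyond 2-fold in the operated lung, at -1.04, beside 8.79% of all genes at least 2-fold lower. TFAM, which packages mitochondrial DNA and starts its transcription, was at -0.47 and -0.53. PPARGC1A, a coactivator of mitochondrial biogenesis, was at or below the floor on all arrays and has no ratio. Of 26 symbols for subunits encoded in mitochondrial DNA, 0 were among the named genes, and those subunits were not analysed here.

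Genes of other mitochondrial proteins, a mixed list of carriers, membrane and matrix proteins, stood nearer to sham. Of 33 listed, 23 were above the floor. Their median was -0.14 in each lung, close to the -0.11 and -0.10 of all genes. Below 0 were 17 of 23 in the operated and 15 of 23 in the non-operated lung, beside 57.7% and 56.6% of all genes. The phosphate carrier SLC25A3, which brings in phosphate for ATP synthase, was at -0.0038 and -0.022. The mitochondrial peroxidase PRDX3 was at -0.91 in the operated lung and was at least 2-fold lower in the non-operated lung at -1.04. It was the 1 of 23 at least 2-fold lower there, beside 8.55% of all genes. SOD2, the mitochondrial superoxide dismutase, was above sham at 0.77 and 0.68. Of 17 symbols for mitophagy and mitochondrial dynamics, 8 were on the array. Below 0 were 7 of 8 in the operated and 6 of 8 in the non-operated lung, beside the same 57.7% and 56.6%. OMA1, counted in both, was below the floor in the operated lung at 7.19 and in the non-operated lung at 7.30. PINK1, a kinase that marks damaged mitochondria, was at least 2-fold higher in each lung at 1.11 and 1.52, and the fission gene DNM1L was at -1.09 in the operated and -0.77 in the non-operated lung.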

How the data were processed

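RNA of 3 minipig lung samples was read on a porcine Affymetrix expression array. The deposited table holds 1 log2 signal per probe set and array, and per the submitters' processing notes the authors made these values with MAS5, which scales each array and condenses its probes. The sources used here do not give its version or the target value of the scaling. The table had 0 further columns of values, and no detection calls were used.

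Of 23999 probe sets, 64 controls were left out, 10069 had 1 gene symbol in the platform annotation, 198 had several and 13668 had none and are unnamed here. No probe set listed with several genes was used, and 1 of these matched the symbol pattern. All 60 subunit genes matched the RefSeq table of Sscrofa11.1 by identifier. The probe set with the highest mean log2 signal stood for a gene. Ratios are differences of log2 signal, with values at or below the floor, each array's median, set to the floor, and a gene entered a comparison if either of its arrays exceeded the floor. A call is a ratio of at least 2-fold. MAS5 treats arrays separately, so a difference in RNA composition can shift all ratios together.

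Named by rule were members at least 2-fold apart, the highest and lowest of each complex by ratio, the highest by signal, the 5 highest and 5 lowest between both lungs, isoform pairs, and genes whose probe sets lay on opposite sides of 0 by more than 0.5. Further members, and genes of other lists short of 2-fold, are named for their role, after their values were seen. Members and lists were chosen with earlier results of these data known. Alternatives were other floors, pseudocounts, scalings, probe set choices, thresholds and complex assignments. Calculations used Python 3.11.15, numpy 2.4.6 and pandas 2.3.3. The calling step was tested on simulated data with little noise and with shifts beyond the threshold in genes of high signal. That checks the calculation and gives no error rate for calls on these arrays.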

Additional observations from a re-analysis of the deposited data

Results flagged for a closer look

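For 4 subunit genes the operated and the non-operated lung lay on opposite sides of sham, and none of these differences was tested, since each group is 1 array. NDUFC2 was 0.098 above sham in the operated lung and at -0.34 in the non-operated lung, a difference of 0.44 on the log2 scale, and 96.3% of all genes had a lower ratio between both lungs. COX6C was at 0.060 and -0.14, a difference of 0.20. NDUFS3 was at 0.036 and -0.066, a difference of 0.10, and COX6A1 at 0.057 and -0.017, a difference of 0.074. From the probe sets that stand for these genes, the difference of NDUFC2 was larger than the pooled SD of 0.23 between probe sets and the other 3 were smaller. For NDUFS3 the difference was 0.40 with the mean of all its probe sets and 0.30 with the probe set of lowest signal, both larger than that SD.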

How the results depend on the processing

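With 1 array per group no result has an error between animals, and signals near the floor limit ATP5I most. At a 1.5-fold threshold 17 subunit genes were lower in the operated and 19 in the non-operated lung against sham, and 1 was lower between both lungs. At least 2-fold lower were 4 in the operated and 5 in the non-operated lung, against which the mean of all probe sets gave 2 and 3, and the probe set of lowest signal also 2 and 3. The subunit median ranged over all settings from -0.47 to -0.41 in the operated lung, from -0.43 to -0.40 in the non-operated lung, and from -0.012 to -0.00033 between both lungs. Under median centring and quantile scaling the all-gene median in the operated lung was -0.096 and -0.097. Among single genes, ATP5I in the operated lung was at -0.50 with a floor at the 75th percentile, where its lower values are replaced by that floor, and COX7A1 in the non-operated lung was at 0.0071. With the probe set of lowest signal, SDHB was at 0.34 and 0.45 and NDUFB3 at -0.56 and -0.58 in the operated and the non-operated lung, and ATP5S was at -0.86 in the operated lung. With the mean of all probe sets, the complex IV median in the operated lung was 0.057 and COX7C was at 0.17 and 0.15, and the complex II median in the operated lung was -0.017 with the probe set of lowest signal. The cause of these moves between probe sets was not tested. No paired analysis was possible because each group holds 1 array.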
